A study of Teleogryllus oceanicus with 18 samples.

Results

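The genes described here fell early in parasitized field crickets, *Teleogryllus oceanicus*, from both populations of the study, Mangaia and Kauai. A gene was taken when its mean over the 3 control pools was at least 5 and under 1000 CPM (read pairs relative to the size of the library, scaled with TMM factors) and its mean over the 3 pools collected 4 days after infestation was under 0.5 times that control mean, in Mangaia and again in Kauai. This rule gave 177 genes of the 23748 that reached 1 CPM in at least 2 libraries. In Mangaia 873 genes met it and in Kauai 1141 did. The levels of the controls and of the day 4 pools chose these genes, so the fall at day 4 is a description, and no test of it is read as support.

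*Ormia ochracea* is a tachinid fly that finds male crickets by their song. Its first larvae, called planidia, burrow into the cricket, feed inside it on muscle and fat body while it stays alive, and kill it when they leave. Insects meet such an intruder with melanin-forming phenoloxidase, with blood cells and with pattern recognition receptors, while tissue is lost to the larva and resources move between reproduction, storage and defence.

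Sexually mature males of laboratory colonies were used, over a range of days after eclosion, and the ages in single pools are not known. Infested males carried 2 planidia, taken from flies caught in California and placed by hand between thorax and abdomen, and controls went through the same handling with no larva. The 6 groups were controls, males 4 days after infestation and males 7 days after infestation, of Mangaia and of Kauai. Each group had 3 pools with equal RNA of 2 males a pool, so errors measure how pools, not single males, differ. The study weighed control males up to day 7 and had 1 control group in each population. The day 4 pools thus had no controls of the same day. Mangaia pools held 2 normal-wing males, whereas each Kauai pool held 1 flatwing and 1 normal-wing male, so population and wing morph cannot be told apart. The tissue label reads abdomen, whereas the study describes RNA from bodies without head, digestive tract, pronotum, wings and legs. How much thorax tissue the pools held is thus not known. Larvae were taken out before the RNA was extracted. Males whose larvae left before day 7 were not used by the study, so the day 7 groups hold only males that still carried them.

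Between 6266925 and 8023588 read pairs per library fell in genes, and TMM factors ran from 0.846 to 1.151. The factors were 0.846 to 0.927 in Kauai controls and 0.977 to 1.061 in Kauai day 4 pools. In Mangaia they were 0.970 to 1.049 in controls and 0.990 to 1.092 at day 4. The mean correlation of a library with the other pools of its group, over all genes, was lowest for Mangaia day 7 pool 2 (0.902) and highest for Mangaia control pool 3 (0.964). The share of pairs that mapped to several places was 6.57% to 8.28% in Kauai at day 7, against 8.52% to 14.4% in the other groups. The genes carry numbers that the assembly gave them (MSTRG) or that came with the genome (TOG), and names were at hand only for the 53 immune genes that the study lists with a description, which are fewer than all the genes it counted as immune. The tissue label could therefore not be checked against marker genes, and the share of muscle, fat body or testis in a pool is not known. In such pools fewer cells of a type and less RNA per cell cannot be told apart.

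**Figure D1:**
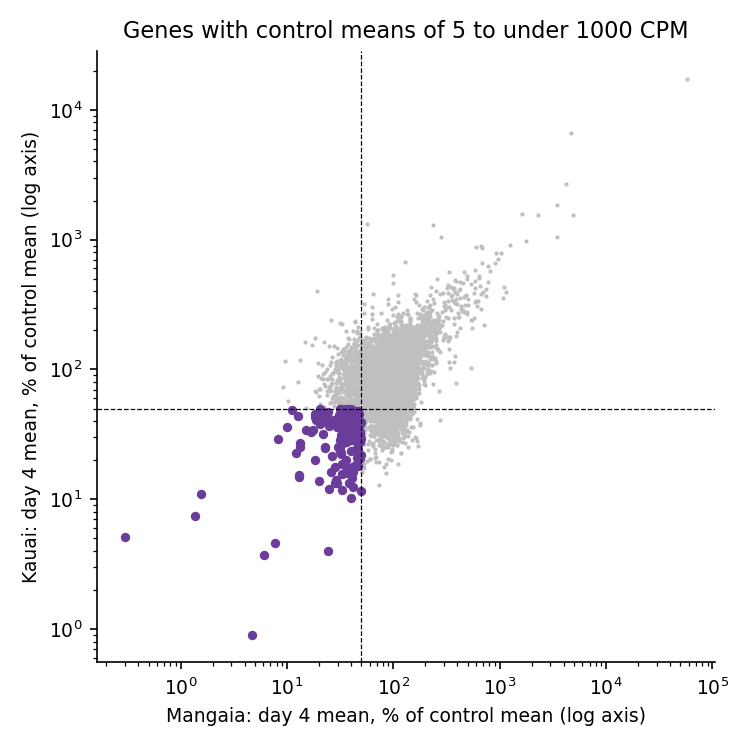
Mean CPM 4 days after infestation as percent of the control mean, in Mangaia (horizontal) and Kauai (vertical), both on log axes, for the 10774 genes with control means of 5 to under 1000 CPM in both populations. The 177 genes described are purple and fill the lower left corner below 50% (dashed lines), with a small number far below the rest.

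The 177 genes spanned nearly the whole range of control levels that the rule allowed. Their control means had a median of 32.5 CPM in Mangaia (5.13 to 939) and of 28.5 CPM in Kauai (5.03 to 998), and 127 of them had at least 10 CPM in the controls of both populations, 34 at least 100 CPM and 10 at least 300 CPM. At day 4 the median gene stood at 36.7% of its control mean in Mangaia and at 34.8% in Kauai. Deep falls were few: 38 genes were under 25% of control in Mangaia, 48 in Kauai and 14 in both, and 5 were under 10% in both. Among the 10774 genes with control means in the same range in both populations, 1.64% met the rule, while 159 genes, or 1.48%, more than doubled in both. In sum the 177 genes took 13985 to 19772 CPM of a control library and 3854 to 6943 CPM of a day 4 library.

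Pools were compared next, since the rule used only means. In 128 genes every Mangaia day 4 pool lay below every Mangaia control pool (12.4% of all genes tested), in 123 the same held for Kauai (13.6%), and in 93 it held in both populations (2.14%). All of these counts rest on the libraries that the rule used, and nothing is read from them. In 16 genes more than 66.7% of the control CPM of a population came from 1 pool, 13 of them in Mangaia and 7 in Kauai. The rule was also applied with each of the 18 libraries left out in turn. Of the 177 genes, 54 met it whichever library was missing, 123 failed it at least once and 51 failed it without any of 3 or more libraries. The 54 ranged from 6.10% to 43.5% of control at day 4 in Mangaia and from 3.74% to 44.4% in Kauai.

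**Figure D2:**
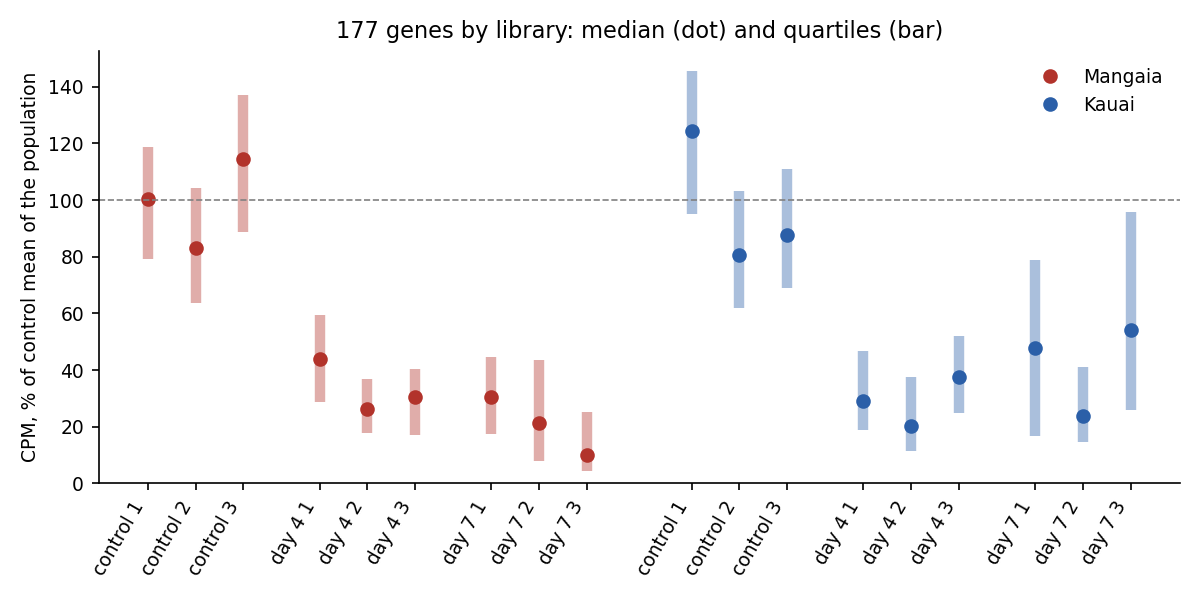
CPM of the 177 genes in each of the 18 libraries, as percent of the control mean of the population (vertical axis); dots are medians over genes and bars run from the lower to the upper quartile. The medians of the day 4 pools lay between 20.2% and 44.0%, and at day 7 they ran from 9.92% in Mangaia pool 3 to 54.3% in Kauai pool 3.

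The control pools were not alike for these genes. Kauai control pool 1 was the highest of its group for 105 genes, or 59.3%, against 35% of all genes tested. Mangaia control pool 3 was the highest for 54.2% against 30.5%. Over the genes, the median was 125% of the control mean in Kauai control pool 1 and 80.7% and 87.8% in pools 2 and 3, and at day 4 no library had a median above 44.0%.

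Close to the threshold, MSTRG.13553 stood at 49.97% of control in Kauai and 38.1% in Mangaia, and MSTRG.19424 at 49.9% and 40.4%, and both were taken. MSTRG.10974, at 50.1% in Mangaia and 29.4% in Kauai, and MSTRG.1241, at 50.2% and 39.5%, were left out. With the limit at 0.4 times control 69 genes met the rule, and with 0.6 times control 391 did.

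Described by edgeR's quasi-likelihood test with Benjamini-Hochberg adjustment over all genes, 26 of the 177 genes were called lower at day 4 in Mangaia (1.21% of all genes tested), 19 in Kauai (0.337%) and 12 in both (0.059%). The rule chose the genes on these same libraries, so these calls restate the choice and nothing is read from them. The count of 12 was 6 without Mangaia day 4 pool 2, 6 without Mangaia day 4 pool 3, 5 without Kauai control pool 3, 6 without Kauai day 4 pool 1 and 4 without Kauai day 4 pool 3. These 12 were MSTRG.1898, MSTRG.1966, MSTRG.3006, MSTRG.3232, MSTRG.7489, MSTRG.14335, MSTRG.14598, MSTRG.14599, MSTRG.16650, MSTRG.20471, MSTRG.21806 and MSTRG.22449. They covered levels from MSTRG.14599, at 5.03 CPM in Kauai controls, to MSTRG.20471, at 939 CPM in Mangaia controls.

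The most abundant of these 12, MSTRG.20471, had 947, 660 and 1210 CPM in the Mangaia control pools, 140, 167 and 56.7 CPM at day 4 and 109, 33.6 and 55.6 CPM at day 7. In Kauai it had 549, 767 and 401 CPM in controls, 91.8, 111 and 50.6 CPM at day 4 and 52.9, 109 and 78.9 CPM at day 7. Every infested pool lay far below every control pool in both populations, and the levels of day 4 and day 7 overlapped. As group means it was at 12.9% and 14.8% of control at day 4 and at 7.04% and 14.0% at day 7, in Mangaia and Kauai.

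MSTRG.1966 followed the same course at a lower level. Its Mangaia pools read 362, 241 and 348 CPM in controls, 36.0, 64.2 and 23.3 CPM at day 4 and 43.9, 13.8 and 31.0 CPM at day 7. Its Kauai pools read 143, 143 and 245 CPM, then 9.10, 43.7 and 28.7 CPM, then 8.05, 30.0 and 21.6 CPM. Here too control and infested pools were apart, and the change between the infested stages was within the spread of the pools: the log2 fold change from day 4 to day 7 was -0.48 (SE 0.56) in Mangaia and -0.45 (SE 0.56) in Kauai.

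MSTRG.3232 and MSTRG.22449 also fell and then held. MSTRG.3232 went from 135, 124 and 211 CPM to 24.7, 15.6 and 17.4 CPM at day 4 in Mangaia, and from 107, 106 and 74.7 CPM to 24.8, 21.4 and 19.7 CPM in Kauai. At day 7 its mean was 11.7% of control in Mangaia and 23.0% in Kauai, next to 12.3% and 22.9% at day 4. MSTRG.22449 was at 18.4% and 20.0% of control at day 4 and at 12.7% and 27.2% at day 7.

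Other genes rested on a single control pool in each population. TOG002075, at 0.302% of control in Mangaia and 5.11% in Kauai at day 4, had 83.3, 2.45 and 3.36 CPM in Mangaia controls and 0, 1.43 and 56.7 CPM in Kauai controls. In Mangaia it had 2 reads over the 3 day 4 pools, and in Kauai 1.17, 0.70 and 1.09 CPM, which lie inside the range of the Kauai control pools. MSTRG.23662 was alike, with 103, 4.90 and 7.33 CPM in Mangaia controls and 3.65, 17.7 and 306 CPM in Kauai controls. MSTRG.3548, chosen after its values were seen, had 25.9, 0.68 and 1.53 CPM in Mangaia controls and 0, 0.32 and 19.0 CPM in Kauai controls. These 3 genes peaked in the same pools, control pool 1 of Mangaia and control pool 3 of Kauai.

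Among the genes with the highest control levels, TOG000580 had 541, 460 and 1160 CPM in Mangaia controls, 277, 299 and 186 CPM at day 4 and 197, 88.3 and 30.9 CPM at day 7. In Kauai its pools read 1447, 614 and 895 CPM, then 116, 114 and 244 CPM, then 289, 112 and 605 CPM, so that Kauai day 7 pool 3 came level with the lowest control pool. MSTRG.2459 had 1312, 713 and 763 CPM in Kauai controls, 195, 114 and 255 CPM at day 4 and 754, 151 and 663 CPM at day 7, with pool 2 far below the other day 7 pools. The Kauai control means of MSTRG.18491 and TOG000580, 998 and 985 CPM, lay just under the upper limit of the rule. With each of the 18 libraries left out in turn, MSTRG.18491 met the rule 2 times and TOG000580 11 times. MSTRG.18491 stayed low in Kauai at day 7, at 20.5, 26.3 and 119 CPM, after 84.4, 178 and 217 CPM at day 4. MSTRG.2618 and MSTRG.20471 stayed low there too, with group means of 255 and 84.5 CPM at day 4 and 235 and 80.4 CPM at day 7. The Kauai mean of MSTRG.4366 was 188 CPM at day 4 and 326 CPM at day 7. MSTRG.4366 and MSTRG.2618 were at 36.9% and 48.3% of control in Mangaia at day 4 and at 30.8% and 38.1% in Kauai.

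**Figure D3:**
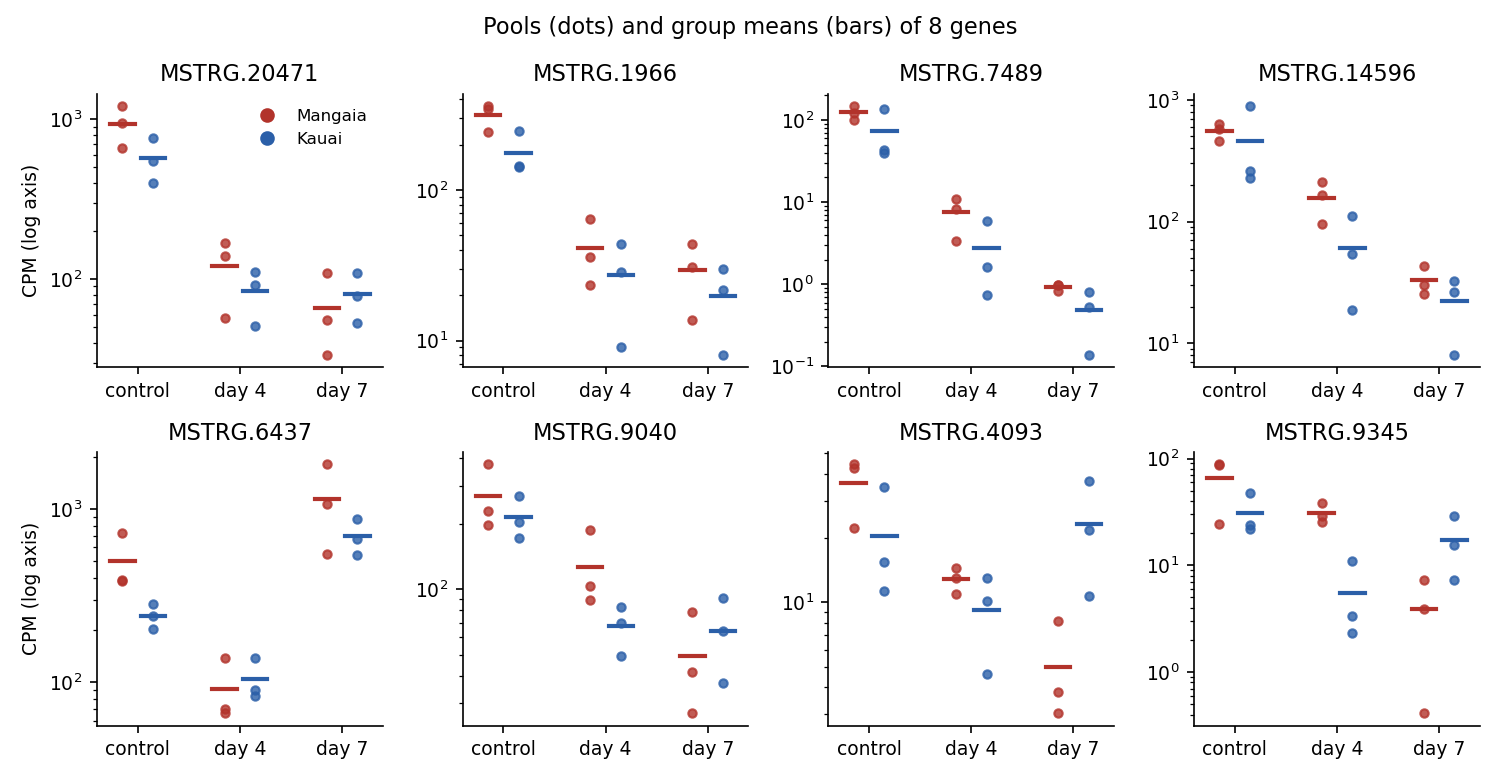
CPM (log axes) of 8 genes in every pool (dots) with group means (bars), for Mangaia in red and Kauai in blue, in controls, at day 4 and at day 7. MSTRG.20471 and MSTRG.1966 fell and held, MSTRG.7489 and MSTRG.14596 went on falling, MSTRG.6437 rose above its controls by day 7, and MSTRG.4093 and MSTRG.9345 had higher means in Kauai than in Mangaia at day 7.

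Whether a fall chosen in 1 population was seen in the other was read from libraries that the choice did not use. Of the 873 genes that met the rule in Mangaia, 20.3% met it in Kauai, against 7.82% of the 11627 genes with a Mangaia control mean in range. The Kauai day 4 mean was below the Kauai control mean for 72.3% of these 873 genes against 49.9%, and their median day 4 level in Kauai was 76.1% of control against 100%. Chosen in Kauai, 15.5% of 1139 genes with reads in Mangaia controls met the rule in Mangaia against 6.19% of 11597 genes, and their median Mangaia level was 85.1% of control against 98.7%. The shared fall was thus more frequent than among all genes, and most genes chosen in 1 population did not meet the rule in the other. The 15.5% was 10.1% without Kauai day 4 pool 2. The genes are not independent of each other, so no p is given for these shares.

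The left-out pools gave the same kind of reading. Applied without the pools numbered 1, the rule took 285 genes, and in the left-out pools 55.4% of them were lower at day 4 than in controls in both populations, against 26.2% of all genes in range. Without the pools numbered 2 it took 173 genes, of which 82.1% were lower in both left-out pairs against 34.9%. Without the pools numbered 3 it took 152 genes, of which 75% were lower against 25.7%. The left-out pools were under 0.5 times control in both populations for 22.1%, 30.1% and 31.6% of the genes so chosen, against 1.67%, 5.51% and 1.55%. The numbers only name pools, and the left-out control and day 4 pools are 1 library each.

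At day 7, in libraries that the rule did not use, the genes parted. Relative to day 4 their median stood at 0.678 times in Mangaia and at 1.51 times in Kauai, against 1.06 and 1.03 times for all genes. The median log2 fold change from day 4 to day 7 was -0.55 in Mangaia, with 126 of 177 genes below 0, and 0.59 in Kauai, with 112 of 177 above 0, while over all genes it was 0.08 and 0.04. The day 4 pools were chosen low by the rule, which works against a fall and towards a rise in this comparison. As percent of control, the median gene was at 23.6% in Mangaia and at 46.7% in Kauai at day 7. At day 7, 156 of the 177 genes, or 88.1%, were below the control mean in both populations, against 36.1% of the 10774 genes with control means in range, and 32 were under 25% of control in both. The control pools were chosen high by the rule, which works towards a day 7 level below control, so these counts are a description.

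The genes were grouped by how the day 7 mean compared with the day 4 mean. In Mangaia 55 genes fell further, to under 0.5 times the day 4 mean, 106 held within 0.5 to 2 times, 14 recovered to more than 2 times day 4 and at least 0.5 times control, and 2 rose more than 2 times but stayed lower. In Kauai 35 fell further, 81 held, 53 recovered and 8 recovered in part. Together, 60 genes held in both populations and 19 fell further in both, 31 held in Mangaia and recovered in Kauai, 18 fell further in Mangaia and recovered in Kauai, and 4 recovered in both. The reverse course, further fall in Kauai and recovery in Mangaia, was seen for 2 genes.

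Single pools weighed heavily on these counts. Kauai day 7 pool 2 was the lowest of its group for 47 of the 53 recovered genes and for 66.7% of all 177, against 25.9% of all genes tested. Its median gene was at 23.9% of control, close to the 21.3% of Mangaia day 7 pool 2, whereas Kauai pools 1 and 3 were at 47.7% and 54.3%. Mangaia day 7 pool 3 was the lowest for 64.4% of the 177 genes against 23.5%, with a median of 9.92% of control. The number of recovered genes in Kauai was 48 without pool 1, 72 without pool 2 and 28 without pool 3. In Mangaia the number that fell further was 81 without pool 1, 63 without pool 2 and 49 without pool 3. Mangaia day 4 pool 1 was the highest of its group for 63.8% of the 177 genes, against 35% of all genes tested. Its median gene was at 44.0% of control, beside 26.2% and 30.6% in Mangaia day 4 pools 2 and 3. The median ratio of day 7 to day 4 stayed at 0.553 to 0.798 in Mangaia and at 1.25 to 1.62 in Kauai with any day 7 pool left out. It was not computed with a day 4 pool left out. These alternatives were chosen after seeing the data.

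**Figure D4:**
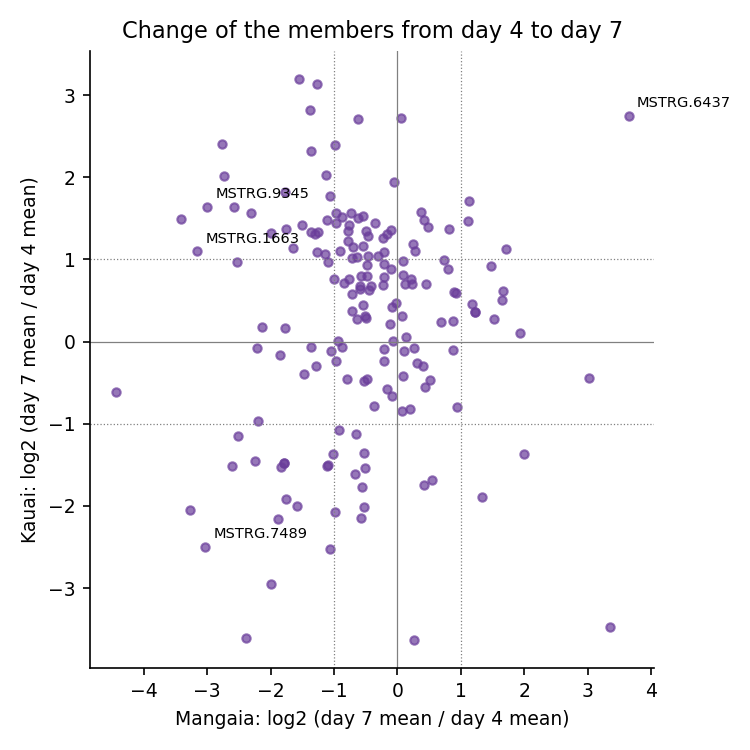
Log2 ratio of the day 7 mean to the day 4 mean CPM in Mangaia (horizontal) and Kauai (vertical) for the 174 genes with reads at day 7 in both populations; dotted lines mark a change by a factor of 2. More dots lie upper left, lower in Mangaia and higher in Kauai, than in any other corner. The 4 genes that recovered in both populations lie upper right, and of these MSTRG.6437 is farthest to the right.

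By edgeR's quasi-likelihood test with Benjamini-Hochberg adjustment over all genes, 12 of the 177 genes were called lower at day 7 than at day 4 in Mangaia and 8 higher, beside 16.8% and 9.79% of all genes tested. In Kauai 9 were called lower and 7 higher, beside 15.5% and 9.18%. The shares of the 177, 6.78% and 4.52% in Mangaia and 5.08% and 3.95% in Kauai, were below those of all genes in each direction. Counted by pools, 37 genes had every Mangaia day 7 pool below every day 4 pool (23.6% of all genes) and 9 had every one above (19.9%). In Kauai 20 had every day 7 pool below every day 4 pool (24%) and 17 had every one above (19%). The 20 calls in Mangaia became 12 without day 4 pool 1, 39 without day 7 pool 1, 13 without day 7 pool 2 and 12 without day 7 pool 3. The 16 calls in Kauai became 27 without Mangaia day 7 pool 2, 9 without Kauai day 4 pool 1, 5 without Kauai day 4 pool 2 and 4 without Kauai day 7 pool 1.

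Of the genes called higher at day 7 than at day 4, MSTRG.6437 was the only one called in both populations. In Mangaia it had 389, 730 and 385 CPM in controls, 70.1, 66.1 and 138 CPM at day 4 and 1809, 553 and 1065 CPM at day 7. In Kauai it had 282, 239 and 203 CPM, then 139, 82.7 and 90.0 CPM, then 674, 872 and 545 CPM. Every day 7 pool lay above every day 4 pool, and in Kauai above every control pool as well. By edgeR's quasi-likelihood test the Mangaia rise from day 4 was 3.64 on the log2 scale (SE 0.44, adjusted p = 0.00116) and the Kauai rise 2.75 (SE 0.43, adjusted p = 0.00515). Both calls held under all 16 alternatives run on them, and the day 7 mean reached 228% of control in Mangaia and 289% in Kauai.

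The other genes called higher at day 7 in Mangaia were MSTRG.16650, MSTRG.18122, MSTRG.17021, MSTRG.21117, MSTRG.7495, MSTRG.74 and MSTRG.11076. MSTRG.74 had 58.3, 46.5 and 62.0 CPM in Mangaia controls, 12.2, 9.53 and 12.5 CPM at day 4 and 32.7, 58.3 and 39.0 CPM at day 7, a rise of 1.92 on the log2 scale (SE 0.39, edgeR adjusted p = 0.00457). MSTRG.21117 came back to its control level there, from 20.0, 11.3 and 14.6 CPM at day 4 to 39.5, 67.0 and 38.4 CPM at day 7 beside 54.9, 42.5 and 41.1 CPM in controls. MSTRG.11076 had 221, 41.0 and 32.8 CPM at day 7 after 6.60, 19.1 and 10.6 CPM at day 4. Every day 7 pool lay above every day 4 pool, but the size of the rise rested largely on pool 1. MSTRG.7495 rose by 1.70 (SE 0.53, edgeR adjusted p = 0.0288), and that call was lost without Mangaia day 4 pool 1, day 4 pool 3 or day 7 pool 1, with only the compared libraries in the fit and with the replicate block.

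In Kauai the genes called higher besides MSTRG.6437 were MSTRG.10655, MSTRG.8926, MSTRG.19424, MSTRG.21309, MSTRG.23221 and MSTRG.1865. MSTRG.8926 had 23.3, 10.8 and 21.8 CPM at day 4 and 41.5, 44.9 and 71.5 CPM at day 7, beside 77.2, 45.7 and 37.0 CPM in controls. Every day 7 pool lay above every day 4 pool. In MSTRG.1865 the day 7 pools read 21.1, 3.58 and 21.1 CPM, in MSTRG.21309 16.5, 2.65 and 18.2 CPM and in MSTRG.19424 24.4, 3.45 and 26.8 CPM. In these 3 genes pools 1 and 3 stood about level and pool 2 far below them. MSTRG.10655 rose by 1.36 on the log2 scale (SE 0.40, edgeR adjusted p = 0.0253), and its call was lost without any of the 3 Kauai day 4 pools, without Kauai day 7 pool 1 and with only the compared libraries in the fit.

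Among the genes that went on falling, MSTRG.7489 was called lower at day 7 than at day 4 in both populations. Its Mangaia pools read 148, 123 and 100.2 CPM in controls, 11.0, 8.29 and 3.37 CPM at day 4 and 0.970, 0.982 and 0.823 CPM at day 7. Its Kauai pools read 43.7, 137 and 40.0 CPM, then 0.733, 5.88 and 1.64 CPM, then 0.139, 0.796 and 0.528 CPM. The stages did not overlap in Mangaia, and in Kauai day 4 pool 1 lay among the day 7 pools. From day 4 to day 7 the log2 fold change in Mangaia was -3.01 (SE 0.72, edgeR adjusted p = 0.00951) and that in Kauai -2.45 (SE 0.82, edgeR adjusted p = 0.0422). The Kauai call was lost without Kauai day 4 pool 2, without any of the 3 Kauai day 7 pools, with limma voom and with only the compared libraries in the fit, and the Mangaia call held under all 16 alternatives.

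MSTRG.21251 fell from 30.5, 55.7 and 38.5 CPM at day 4 to 0.139, 4.64 and 5.41 CPM at day 7 in Kauai, or by -3.60 on the log2 scale (SE 0.91, edgeR adjusted p = 0.0150) that held under all 16 alternatives. In Mangaia it had 43.6, 38.0 and 8.76 CPM at day 4 and 9.28, 1.84 and 6.17 CPM at day 7, with 1 day 7 pool above the lowest day 4 pool and an edgeR adjusted p of 0.0521. MSTRG.3701 had the same course, with a log2 fold change of -2.93 (SE 0.87, edgeR adjusted p = 0.0258) in Kauai and -2.01 (SE 0.82, adjusted p = 0.0800) in Mangaia. The Kauai call of MSTRG.3701 was lost without Kauai day 4 pool 2, day 7 pool 1 or day 7 pool 3 and with only the compared libraries in the fit.

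Kauai and Mangaia were then compared at day 7, where no library had been used by the rule. The median log2 difference of the 177 genes, Kauai minus Mangaia, was 0.54 against 0.03 for all genes, with 118 genes above 0 and 57 below. The genes are not independent of each other, so these counts are a description. By pool, the median gene of Kauai day 7 pool 2 (23.9% of its control mean) lay below that of Mangaia day 7 pool 1 (30.4%). At an unadjusted p under 0.05 of edgeR's quasi-likelihood test, 47 genes were higher in Kauai (13.2% of all genes tested) and 8 lower (10.3%). After Benjamini-Hochberg adjustment over all genes 3 were called higher, beside 1.54% of all genes, and 0 lower, beside 1.99%. DESeq2 and the likelihood ratio test each called 3 genes lower, and limma voom called 1. In 23 genes every Kauai pool lay above every Mangaia pool (15% of all genes) and in 9 below (11.8%). The 3 calls became 17 without Kauai day 7 pool 2, 0 without Kauai day 7 pool 1 and 0 without Kauai day 7 pool 3. They became 1 without Mangaia day 4 pool 3, Mangaia day 7 pool 3 or Kauai day 4 pool 1, 6 without Kauai control pool 3 or Kauai day 4 pool 3 and 9 without Kauai day 4 pool 2. With the replicate block 1 gene was called, and with only the 6 day 7 libraries in the fit 0 were.

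The 3 genes were MSTRG.1663, MSTRG.2159 and MSTRG.4093. MSTRG.1663, which lies under 10 CPM in Kauai at day 7 and was singled out after its values were seen, had 7.50, 9.55 and 9.11 CPM in Kauai and 0.554, 0.737 and 0 CPM in Mangaia. Its day 4 pools had not been apart, with 6.16, 0.70 and 5.34 CPM in Kauai and 4.89, 1.93 and 4.72 CPM in Mangaia. The difference at day 7 was 4.26 on the log2 scale (SE 0.77, edgeR adjusted p = 0.0201), and it was not called without Kauai day 7 pool 1 or pool 3 or with only the compared libraries in the fit.

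MSTRG.2159 had 32.8, 4.11 and 79.9 CPM at day 7 in Kauai and 4.16, 3.56 and 0.412 CPM in Mangaia, so that Kauai pool 2 came level with Mangaia pool 1. Its control pools, at 108, 30.0 and 112 CPM in Kauai and 14.1, 7.22 and 35.3 CPM in Mangaia, overlapped and were not called different (edgeR adjusted p = 0.249). MSTRG.4093 had 21.9, 10.7 and 37.1 CPM in Kauai and 8.17, 3.81 and 3.02 CPM in Mangaia at day 7, with no overlap. The log2 differences were 3.83 (SE 0.93, edgeR adjusted p = 0.0404) and 2.22 (SE 0.54, edgeR adjusted p = 0.0408). Of the alternatives run on these comparisons, both calls were lost without any of the 3 Mangaia day 7 pools, without Kauai day 7 pool 1 or pool 3, with the replicate block and with only the compared libraries, and that of MSTRG.2159 also with limma voom. The share of pairs that mapped to several places was 6.57% to 8.28% in the Kauai day 7 pools and 8.52% to 11.2% in the Mangaia day 7 pools, and its part in these differences was not tested.

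The change from day 4 to day 7 was also compared between the populations, with the day 4 pools again chosen low by the rule. Its median difference, Kauai minus Mangaia, was 0.91 on the log2 scale against 0.04 for all genes, and 120 genes were above 0. At an unadjusted p under 0.05 of edgeR's quasi-likelihood test 42 genes were above 0 (6.64% of all genes) and 8 below (8.48%). After Benjamini-Hochberg adjustment 1 was called above, MSTRG.9345 (0.114%), and 0 below (1.16%), where the likelihood ratio test called 4 below, DESeq2 3 and limma voom 0. The count of 1 became 8 without Mangaia day 7 pool 1, 6 without Kauai day 4 pool 3, and 0 without any other library except Mangaia control pool 1 and Mangaia day 4 pool 1.

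In uninfested crickets the median log2 difference of the 177 genes, Kauai minus Mangaia, was -0.04 against -0.01 for all genes. The rule used the control means of both populations, though not their difference, so the control values are not independent of it. MSTRG.3006 alone was called, higher in Kauai (0.0126% of all genes), and 0 genes were called lower (0.0295%) by edgeR's quasi-likelihood test, as by limma voom, DESeq2 and the likelihood ratio test. At an unadjusted p under 0.05, 4 genes were higher (6.52% of all genes) and 10 lower (8.38%). MSTRG.3006 had 22.3, 33.3 and 24.0 CPM in Kauai controls and 4.74, 5.99 and 7.02 CPM in Mangaia controls, a log2 difference of 2.16 (SE 0.35, edgeR adjusted p = 0.0472). At day 4 it had fallen to 5.72, 6.16 and 2.33 CPM in Kauai and 1.59, 1.93 and 1.48 CPM in Mangaia, and at day 7 to 1.25, 0.663 and 1.45 CPM and 0.554, 0.614 and 1.37 CPM, where the populations overlapped. Its fall from day 4 to day 7 in Kauai was -2.06 on the log2 scale (SE 0.41, edgeR adjusted p = 0.00696). The call in controls was lost without any 1 of the 6 control pools, with the replicate block and with the counts of both strands added. With these and other libraries left out, 0 genes were called without 15 of the 18 libraries, and the call stood without Mangaia day 7 pool 2, Kauai day 4 pool 2 or Kauai day 4 pool 3.

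Of the 53 immune genes listed with a description, MSTRG.9040 was the only one in the group. It matches peptidoglycan-recognition protein SC2, which in Drosophila is an amidase that breaks down bacterial peptidoglycan and so tempers the immune response of the gut. It had 230, 198 and 375 CPM in Mangaia controls, 187, 103 and 89.2 CPM at day 4 and 78.5, 41.7 and 26.9 CPM at day 7. In Kauai it had 268, 172 and 203 CPM, then 83.2, 69.7 and 49.4 CPM, then 64.5, 37.1 and 91.2 CPM. At day 4 it stood at 47.2% of control in Mangaia and at 31.5% in Kauai, and by day 7 it had changed by a further -1.36 on the log2 scale in Mangaia (SE 0.42, edgeR adjusted p = 0.0282), while the Kauai change was -0.07 (SE 0.41, adjusted p = 0.916). The difference between these changes, 1.3 (SE 0.59), had an edgeR adjusted p of 0.312. The Mangaia call was lost without day 4 pool 1, day 7 pool 2 or day 7 pool 3 and with only the compared libraries in the fit.

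Both other peptidoglycan recognition proteins of the list did not fall by the rule. MSTRG.22070, matching peptidoglycan-recognition protein 2-like, was at 159% of control in Mangaia and 168% in Kauai at day 4, and MSTRG.18424, matching the form LB, at 64.1% and 150%. Of the 9 phenoloxidases and their activating factors 7 had control means in range and 0 were under 0.5 times control in either population, and none of the 10 Toll-like receptors and relatives had control means in range. Of the 53 listed genes, 26 had control means in range in both populations. Among these 26, 2 were under 0.5 times control in Mangaia (6.66% of all genes in that range), MSTRG.9040 and MSTRG.23640, which matches a ryanodine receptor, and 2 in Kauai (8.44%), MSTRG.9040 and MSTRG.6375.

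StringTie numbers the loci it assembles along each sequence, so near numbers often mean neighbouring loci, but positions were not analysed here. Of the 168 genes with an MSTRG number, 39 stood in 16 runs in which the next number was at most 3 away, and 5 runs held 3 genes or more. No background was computed for such runs, so they are a description.

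**Figure D5:**
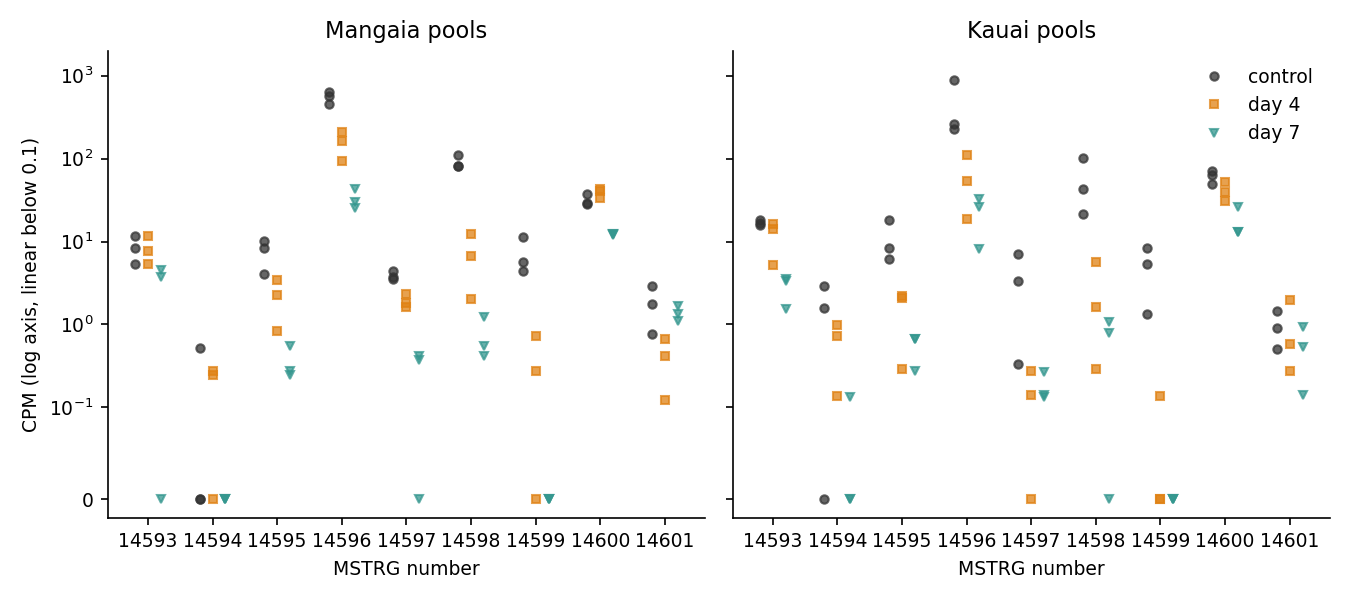
CPM (log axis, linear below 0.1) of 9 genes with consecutive MSTRG numbers in each Mangaia pool (left) and Kauai pool (right), for controls (circles), day 4 (squares) and day 7 (triangles). The group means of MSTRG.14595, MSTRG.14596, MSTRG.14598 and MSTRG.14599 stepped down from controls to day 4 to day 7, while MSTRG.14600 beside them was at 123% and 67.3% of control at day 4.

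The run of MSTRG.14595, MSTRG.14596, MSTRG.14598 and MSTRG.14599 held some of the deepest falls. MSTRG.14596 had 462, 576 and 631 CPM in Mangaia controls, 164, 211 and 94.9 CPM at day 4 and 43.5, 29.8 and 25.5 CPM at day 7. In Kauai it had 260, 891 and 226 CPM, then 18.6, 111 and 54.0 CPM, then 8.05, 32.4 and 26.4 CPM. MSTRG.14598 was at 7.75% and 4.58% of control at day 4 and at 0.800% and 1.11% at day 7, in Mangaia and Kauai. MSTRG.14599 had 8 reads over the Mangaia day 4 pools, 1 read over the Kauai day 4 pools and 0 reads in all 6 day 7 pools. Set against a floor of 3 reads over a group, its day 7 level was at least 53.7-fold lower than controls in Mangaia and at least 37.4-fold lower in Kauai. All 4 genes had fallen to under 6% of control at day 7 in both populations.

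From day 4 to day 7 in Mangaia, MSTRG.14595 fell by 2.57 (SE 0.77), MSTRG.14596 by 2.25 (SE 0.64) and MSTRG.14598 by 3.23 (SE 0.94) on the log2 scale, with adjusted p-values of 0.0251, 0.0211 and 0.0227 by edgeR's quasi-likelihood test. In Kauai the changes were -1.49 (SE 0.75), -1.46 (SE 0.63) and -2.01 (SE 1.02), with edgeR adjusted p-values of 0.151, 0.0990 and 0.154. The Mangaia call of MSTRG.14598 was lost without day 4 pool 1, day 7 pool 1 or day 7 pool 3, with limma voom and with only the compared libraries in the fit. MSTRG.14597, between them, was under the lower limit of the rule, with control means of 3.88 and 3.56 CPM, and was at 49.2% and 3.87% at day 4. MSTRG.14600, next in number, was at 123% and 67.3% of control at day 4.

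In Kauai controls pool 2 was the highest for all 4 genes of this run. It held more than 2 times the level of either other Kauai control pool for 7 of the 177 genes, or 3.95% (2.92% of all genes), and these were MSTRG.14595, MSTRG.14596, MSTRG.14598, MSTRG.7489, MSTRG.19480, MSTRG.4909 and MSTRG.18438. MSTRG.19480 had 57.0, 68.8 and 77.7 CPM in Mangaia controls and 39.2, 127 and 31.7 CPM in Kauai controls, and fell to 5.78% and 5.29% of control by day 7. The 7 genes were chosen by that pool, so nothing is tested on it.

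In another run MSTRG.2612, MSTRG.2614, MSTRG.2615 and MSTRG.2618 were at 26.4% to 48.3% of control in Mangaia and at 20.8% to 39.7% in Kauai at day 4. MSTRG.2611 beside them had 6001 CPM in Mangaia controls and 5451 CPM in Kauai controls, above the limit of the rule, and was at 48.4% and 39.0%, while MSTRG.2616 within the run was at 91.0% and 87.1%. In the run MSTRG.15163, MSTRG.15164 and MSTRG.15165 the day 7 means were 27.1% to 35.4% of control in Mangaia and 65.7% to 121% in Kauai. Kauai day 7 pool 2 was the lowest for each gene, at 11.7, 4.64 and 45.7 CPM. Pool 1 had 29.3, 14.7 and 169 CPM and pool 3 had 42.5, 8.84 and 172 CPM. For MSTRG.15163 and MSTRG.15165 pool 2 lay inside the range of the Kauai day 4 pools. The group means of the run MSTRG.17018, MSTRG.17020 and MSTRG.17021 came back in part, to 50.8% to 70.0% of control in Mangaia and 58.2% to 87.0% in Kauai. The Mangaia means leaned on day 7 pool 2, at 108, 11.2 and 23.45 CPM. Mangaia day 7 pool 1, at 38.2, 2.08 and 5.54 CPM, lay inside the range of the Mangaia day 4 pools for each gene.

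The run MSTRG.15516, MSTRG.15518 and MSTRG.15521 was uneven. MSTRG.15516 had 71.2, 17.3 and 9.16 CPM in Mangaia controls and 5.40, 11.5 and 3.57 CPM at day 7, whereas in Kauai it had 47.8, 11.2 and 16.4 CPM in controls and 86.8, 3.45 and 137 CPM at day 7. Its Kauai day 7 mean was 301% of control, the highest of the 177 genes, and came from pools 1 and 3 alone.

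Of the 177, 168 carried an MSTRG number and 9 a TOG number, so TOG genes made up 5.08%, against 7.88% of all genes tested and 2% of those with control means in range. No strand had been assigned to 82 of them, or 46.3%, against 43.1% of all genes tested and 30.3% of those in range. A further 20, or 11.3%, had reads shared with a locus on the other strand, against 11.1% of all genes tested and 13.2% of those in range. The libraries do not mark strand, so shared pairs cannot be assigned to the gene or to its partner. For these 20 genes, MSTRG.14596, MSTRG.14599 and MSTRG.19480 among them, the column for both strands held fewer pairs than the strand columns added. Their CPM therefore leave shared pairs out.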

How the data were processed

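The authors trimmed read pairs with Trimmomatic 0.33, aligned them with STAR 2.5.3a and StringTie 1.3.4d to the *T. oceanicus* genome, and deposited raw read counts per gene for each library, as STAR gives them (1 column for both strands and 1 for each strand). The count column for both strands was used, and the 4 rows of unassigned pairs were left out of library sizes. Counts were analysed in R 4.3.3 with edgeR 4.0.16: genes that reached 1 CPM in 2 or more of 18 libraries were kept, TMM factors were applied, and 1 quasi-likelihood model of the 6 groups was tested with Benjamini-Hochberg adjustment over all 23748 genes at 0.05. Values in the text are TMM-scaled CPM. Standard errors were derived from the F statistic.

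The gene group, the lists and the rule for named genes were chosen with earlier results of these data known. Named were the 6 genes highest in controls and, with at least 10 CPM in controls, the 6 with the lowest day 4 ratio, the 4 largest rises and 4 largest falls from day 4 to day 7, the largest called differences between populations, the immune gene, and the 4 genes nearest the threshold. Others were named after their values were seen. Alternatives were DESeq2 1.42.0, voom in limma 3.58.1 and the likelihood ratio test, RLE factors, library size alone, filterByExpr, no filter, the strand columns added, only the compared libraries, the replicate block, other limits of the rule, and each library left out. Replicate numbers do not pair the libraries: of 18 correlations of deviations from group means (-0.514 to 0.259), 2 were over 0.1. The tests were checked on simulated counts. Pools are treated as separate samples, and p-values measure only the spread between them.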

Additional observations from a re-analysis of the deposited data

Results flagged for a closer look

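In MSTRG.9345 the change from day 4 to day 7 differed between the populations by 4.62 on the log2 scale (Kauai minus Mangaia, SE 1.08, edgeR quasi-likelihood test of the interaction, adjusted p = 0.0475), the only such call among the 177 genes by that test. It had 24.3, 86.6 and 88.1 CPM in Mangaia controls, 38.2, 25.5 and 29.2 CPM at day 4 and 7.34, 3.93 and 0.412 CPM at day 7. In Kauai it had 47.3, 21.8 and 23.8 CPM, then 2.35, 3.36 and 10.9 CPM, then 15.5, 7.29 and 29.0 CPM. All Mangaia day 7 pools lay below the Mangaia day 4 pools, while Kauai day 7 pool 2 lay below Kauai day 4 pool 3. The gene was no longer called without any of the 3 Mangaia day 4 pools, without Mangaia day 7 pool 2 or 3, without Kauai day 4 pool 1 or 2, without any of the 3 Kauai day 7 pools, with library size alone, with the replicate block and with only the compared libraries in the fit, nor without Mangaia control pool 2 or 3 or any Kauai control pool, and its adjusted p ran from 0.00103 to 0.137 over the 22 alternatives that kept all control pools.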

How the results depend on the processing

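The number of genes that met the rule, 177, was 69 with a limit of 0.4, 391 with 0.6 and 93 when every day 4 pool had to lie below every control pool, stayed at 127 to 209 under the other settings, and was 144 to 245 with 1 library left out. The share of Mangaia-chosen genes that met the rule in Kauai, 20.3%, was 24.8% with RLE factors, 17.2% with library size alone and 17.0% to 24.1% with 1 library left out. The reverse share, 15.5%, was 19.8% with library size alone and 10.1% to 22.9% with 1 library left out. Library size alone shifted the median of all genes at day 4 in Kauai by 0.23 on the log2 scale.

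Calls at day 4 in both populations, 12, were 21 by the likelihood ratio test, 27 by DESeq2, 25 with only the compared libraries and 4 to 15 with 1 library left out. For day 7 against day 4 in Mangaia, 20 became 37, 39 and 6 under these settings and 12 to 39 with 1 library left out, and in Kauai 16 became 34 and 33 by the first 2 and 4 to 27 with 1 library left out. Between populations at day 7, 3 calls became 30 by the likelihood ratio test, 34 by DESeq2, 7 with library size alone, 0 with only the compared libraries and 0 to 17 with 1 library left out. In controls, 1 call became 6 with only the compared libraries, 0 with the strand columns added and 0 to 1 with 1 library left out. For the difference in change, 1 call became 12 by the likelihood ratio test, 18 by DESeq2, 2 with filterByExpr, 0 with library size alone, 0 with only the compared libraries and 0 to 8 with 1 library left out.

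With the replicate block the counts were 10 at day 4, 17 and 14 at day 7 in Mangaia and Kauai, 1 between populations at day 7, 0 in controls and 0 for the difference in change. Of 406 alternatives run on the calls of 25 named results, 86 ended the call and 0 turned its direction; these left out only libraries of the comparison itself. The cause of these shifts was not tested. With 3 pools a group fold changes of these genes had a median SE of 0.61 to 0.64 (log2) within a population and between populations at day 7, and genes with few reads or 1 high pool were least certain.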
